A study of Homo sapiens with 2 samples.

Results

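The genes described here are those that set the first brake on cell division, the passage from the G1 phase of the cell cycle into DNA synthesis. They are the D-type cyclins CCND1, CCND2 and CCND3, their kinases CDK4 and CDK6, the retinoblastoma gene RB1, and the INK4 inhibitors CDKN2A, CDKN2B, CDKN2C and CDKN2D. They were taken by symbol from a list of 10 genes, and 7 of them had a row among the 21445 genes of the deposited mRNA file. CDKN2A, CDKN2B and CDKN2C had none. Among all RefSeq coding genes 69.3% had a row, so 7 of 10 is a share near the background and is no result about these genes; which members lack a row is described below.

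The material was U87MG, an established human glioblastoma cell line, untreated and grown in MEM medium with serum and antibiotics. There was 1 mRNA library and 1 small RNA library of it, with no replicate, no other cell line and no normal brain cell. Every value is therefore the level in 1 library, no difference could be set against a spread between replicates, and no test was made. Levels are given as FPKM, a fragment count per length of gene and per size of library. Which gene length the program used is unknown, so ratios between genes are those of the listed values and have an unknown error. How many mRNA fragments were read is unknown and no FPKM value has an interval, whereas the small RNA library held 11785001 miRNA reads.

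Mitogens raise the D-type cyclins, which bind CDK4 or CDK6 and so form active kinases. These kinases phosphorylate the retinoblastoma protein, which otherwise holds E2F transcription factors on the genes of DNA replication and keeps those genes off. The INK4 proteins bind CDK4 and CDK6 and keep the cyclin out, so they act as brakes, and CDKN2A and CDKN2B are among the tumour suppressor genes most often deleted in glioblastoma. From its second reading frame CDKN2A also encodes ARF, which protects p53.

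The glial markers looked up were split in this library. VIM, an intermediate filament shared by many mesenchymal cells, was at 2420 FPKM and GJA1, a gap junction protein found in astrocytes, at 143 FPKM. The glutamate transporter SLC1A3 was at 19.3 FPKM and the progenitor filament NES at 1.38 FPKM, while the astrocyte filament GFAP was at 0.331 FPKM and S100B, AQP4 and SOX2 had no row. Of 16 markers of immune, endothelial, red blood, epithelial and nerve cells, 10 had a row, beside 69.3% of RefSeq coding genes. Of these 10, 6 reached 1 FPKM, beside 77.5% of all listed coding genes. The highest were the lysosomal CD68 at 52.3 FPKM and the tubulin TUBB3 at 43.5 FPKM. They were followed by SNAP25 (16.3 FPKM), KDR (3.29 FPKM), the epithelial KRT8 (1.92 FPKM) and the neuronal MAP2 (1.37 FPKM). The lowest listed were EPCAM (0.0902 FPKM) and CDH5 (0.0675 FPKM). The defining PTPRC of leukocytes, PECAM1 of endothelium, HBB of red blood cells and CDH1 of epithelium had no row, nor did AIF1 and HBA1. The part of these markers in the levels below was not tested.

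By listed FPKM, CCND1 was by far the highest of the D-type cyclin genes. CCND1, which links growth factor signals to the cell cycle, was listed at 272 FPKM. CCND3, used widely in blood cells and other tissues, was at 9.37 FPKM. CCND2, prominent in neural progenitors and gonads, was at 0.0369 FPKM. CCND1 thus made up 96.7% of the summed FPKM of these 3 genes, CCND3 3.33% and CCND2 0.0131%, and CCND1 was 29.0 times as high as CCND3. The shares depend on the CCND2 value, and whether that is a low level or a failed estimate was not tested, as described below.

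The places of these cyclins among all genes were as far apart. CCND1 stood above 98.7% of the listed genes, at rank 270 of all and at rank 172 of the 14376 listed coding genes. CCND3 stood above 67.5% of the listed genes but above only 54.5% of the coding genes, in the middle of that order. CCND2 stood above 1.51% of the listed genes, close to the bottom of the file.

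**Figure D1:**
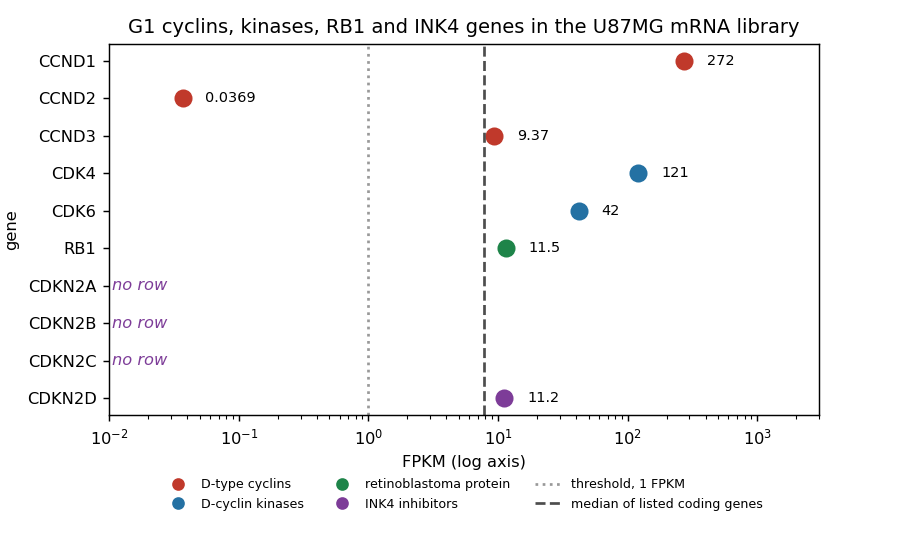
FPKM of each of the 10 genes in the U87MG mRNA library on a log axis, coloured by role, with dotted and dashed lines at 1 FPKM and at the median of the listed coding genes (7.82 FPKM). CCND1, CDK4 and CDK6 lie far to the right of that median, CCND3, RB1 and CDKN2D just to its right, CCND2 far to its left, and 3 INK4 genes have no row.

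Both kinases were high. CDK4, the D-cyclin kinase of most tissues, was listed at 121 FPKM and stood above 97.3% of the listed genes. CDK6, its close relative, was at 42.0 FPKM and stood above 91.5%. The CDK4 level was 2.88 times that of CDK6, so that CDK4 held 74.2% of their summed FPKM. The 3 cyclins together summed to 281 FPKM against 163 FPKM for the 2 kinases, a ratio of 1.73, and CCND1 alone was 2.25 times as high as CDK4.

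Within their families CCND1, CDK4 and CDK6 stood at the top, CCND3 in the lower part and CCND2 at the bottom. Of the 29 cyclin genes looked up, 27 had a row, beside 69.3% of RefSeq coding genes. CCND1 was the highest of them at 2.83 times the next, the p53 target CCNG1 (96.2 FPKM). CCNI (85.2 FPKM) and CCNL1 (60.7 FPKM), a cyclin of RNA processing, came next, CCND3 was at place 18, and CCND2 was last at place 27, below CCNJL (0.0710 FPKM). CCNB3 and CCNQ had no row. All 21 cyclin-dependent kinase genes had a row, beside the same 69.3%. CDK4 and CDK6 held the first and second place, ahead of the mitotic kinase CDK1 at 32.0 FPKM and CDK16 at 30.1 FPKM. CDK4 was 3.77 times and CDK6 1.31 times as high as CDK1, and no spread is known against which to read the smaller of these ratios. The lowest were CDK3 at 1.45 FPKM and CDK7 at 0.281 FPKM.

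**Figure D2:**
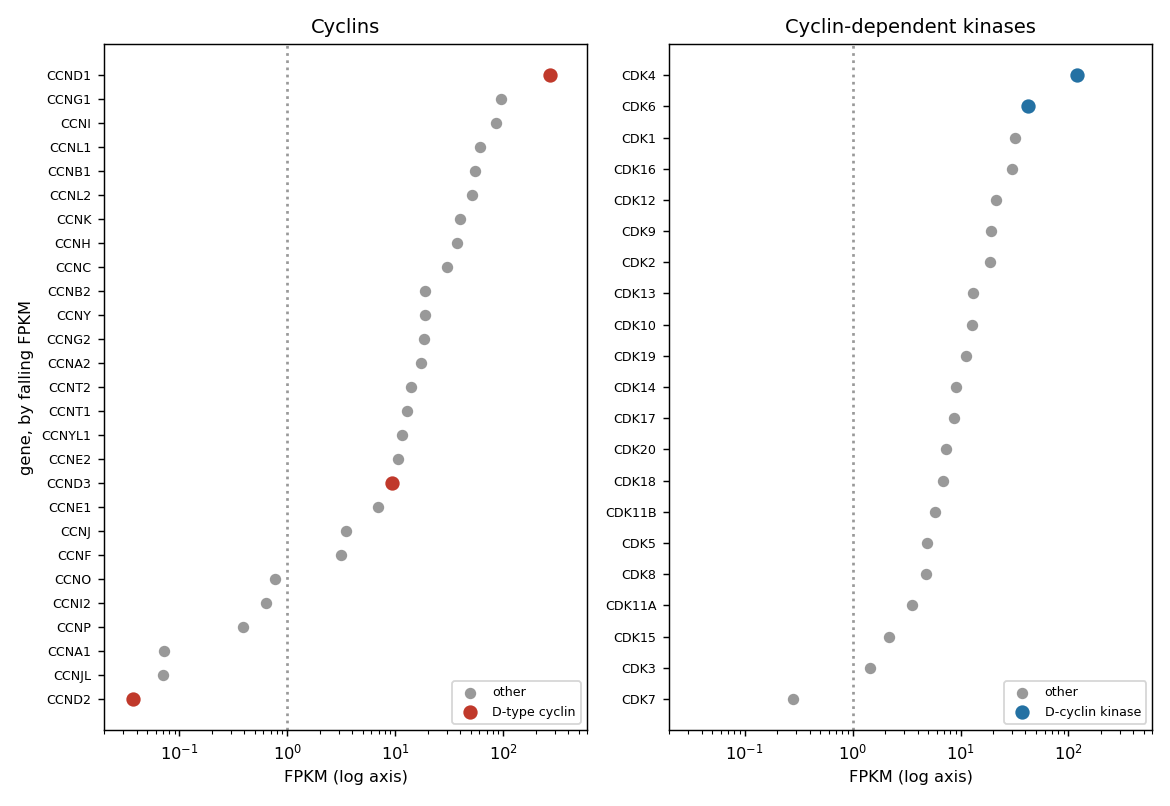
FPKM on a log axis of the 27 cyclin genes (left) and the 21 cyclin-dependent kinase genes (right) with a row, each in falling order, with the D-type cyclins in red and their kinases in blue and a dotted line at 1 FPKM. CCND1, CDK4 and CDK6 lead their families, and CCND2 is the lowest cyclin.

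The value of CDK7 limits what a low value means in this file. CDK7 is the kinase that activates the other cyclin-dependent kinases and is needed by all dividing cells. Its partners CCNH and MNAT1 were at 37.2 and 77.5 FPKM in the same library. The glycolytic enzyme TPI1 was similarly at 0.458 FPKM, against 3358 FPKM for GAPDH. The level of 0.0369 FPKM for CCND2 is therefore given as listed, and whether it is a low level or a failed estimate was not tested.

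Promoter sequences of RefSeq were searched for motifs, and CDK4 had the most matches of one of them. Of the 10 genes 8 had at least 1 promoter window there, from 250 bases before to 50 bases after a transcription start, 14 windows in all on GRCh38.p14. CCND1 and CCND2 had no entry. The letters CACGTG, the E-box bound by MYC and MAX among other factors, were searched; they read the same on both strands. The CDK4 window held them 3 times, starting 216, 196 and 101 bases before the start. The 250 bases before the CDK4 start, at chr12:57752311-57752560 on the minus strand, are shown because of these repeats, with the E-boxes in capitals.
CDK4: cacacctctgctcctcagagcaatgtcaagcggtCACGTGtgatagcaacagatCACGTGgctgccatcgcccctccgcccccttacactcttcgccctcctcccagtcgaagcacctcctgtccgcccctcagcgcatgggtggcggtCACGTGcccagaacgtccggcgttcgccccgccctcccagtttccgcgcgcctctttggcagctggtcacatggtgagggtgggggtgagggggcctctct

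At least 1 CACGTG lay in 7.26% of the 35116 RefSeq promoter windows of this length, and 3 or more lay in 33 of them, or 0.0940%. Among the other members, 1 of 2 CDK6 windows and 2 of 3 CDKN2C windows held the motif once. The windows of CCND3, RB1, CDKN2A, CDKN2B and CDKN2D held none. The only RB1 window had no C followed by G (CpG) and 38.3% GC, against medians of 14 CpG and 58.7% GC over all windows. Whether it covers the main RB1 start was not tested, so the lack of motifs in it describes this window only. MYC was at 26.9 FPKM and its partner MAX at 38.3 FPKM in this library. A match of letters does not show that a factor binds. The E2F motif was searched on both strands, in the forms TTTCGCGC and TTTGGCGC only. It lay in 1.15% of all windows and in none of the 14 member windows. None of 14 is near that share, so it is no result about these genes.

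RB1, the substrate of the D-cyclin kinases, was present at a middling level. It was listed at 11.5 FPKM, above 71.2% of all listed genes and 59.8% of the coding genes, and 1.47 times the median of the coding genes. Its relatives RBL1 (p107) and RBL2 (p130), which hold E2F factors in dividing and in resting cells, were higher, at 17.2 and 28.9 FPKM. RB1 made up 19.9% of the summed FPKM of these 3 pocket protein genes, and RBL2 was 2.52 times as high as RB1.

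Among the INK4 inhibitors, the value of CDKN2D was the only one listed. CDKN2D, which encodes p19, was at 11.2 FPKM, above 70.9% of all listed genes and 59.3% of the coding genes. Its level was close to that of RB1, with a ratio of RB1 to CDKN2D of 1.02. CDK4 and CDK6 together were 14.5 times as high as CDKN2D. For CDKN2A (p16 and ARF), CDKN2B (p15) and CDKN2C (p18) no level can be given. CDKN2AIP, whose protein binds ARF and whose name is close to that of CDKN2A, is a different gene and was at 3.50 FPKM.

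A missing row is not by itself a lack of expression, since PGK1 and TUBB, used by nearly all cells, had none either. The neighbours of each gene on its chromosome were therefore examined, using the order of the 20046 coding genes in RefSeq on GRCh38. Over all coding genes with 10 neighbours on each side, the median was 15 of 20 neighbours with a row. Around CDK4 it was 18 of 20, around CDK6 17, around RB1 16, around CCND3 14, around CCND2 13, around CCND1 10 and around CDKN2D 19. Around CDKN2A and around CDKN2B it was 7 of 20. A count of 7 or fewer was found for 8.23% of the coding genes.

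CDKN2A and CDKN2B lay in an unbroken stretch of 24 coding genes on chromosome 9 without a row. It ran from MLLT3, a reader of acetylated histones, through FOCAD, HACD4, the type I interferon genes, KLHL9 and MTAP to DMRTA1. The 16 interferon genes, of which IFNE, IFNA1, IFNA8 and IFNA2 lie nearest to CDKN2A, are known as silent in most unstimulated cells. The other 8 are MLLT3, FOCAD, HACD4, KLHL9, MTAP, CDKN2A, CDKN2B and DMRTA1. MTAP, the enzyme that salvages methionine and adenine, and the ubiquitin ligase adaptor KLHL9 are expressed in most tissues. The genes next to the stretch had rows, SLC24A2 at 8.80 FPKM on one side and the RNA-binding ELAVL2 at 2.94 FPKM on the other. On the ELAVL2 side TUSC1 (5.21 FPKM), CAAP1 (8.48 FPKM) and PLAA (19.8 FPKM) were listed as well, and IZUMO3, a sperm gene, was not.

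The small RNA library also covers miRNAs of that stretch, which holds the miRNA gene MIR31, which lies between the interferon genes and MTAP, and MIR491, inside FOCAD. miR-31-5p had 1 read and miR-31-3p had 2, which together were 2.55e-05% of the miRNA reads (exact Clopper-Pearson 95% interval 5.25e-06 to 7.44e-05%, counting error only). miR-491, miR-4473 and miR-4474 had no row. Low counts were common in that file, where 51.6% of the listed miRNAs had 10 reads or more. miR-4421 and miR-6500, of the stretch around CDKN2C described below, had no row either. The share of all RefSeq miRNAs with a row was not determined, so these missing rows are no result about either stretch. Whether the low count of miR-31 has to do with the missing mRNA rows was not tested. The sequence of miR-31-5p is shown as that of a miRNA of the stretch from MLLT3 to DMRTA1. Its seed, the bases 2 to 8 that pair with targets, is in capitals, as in all miRNA sequences here.
miR-31-5p: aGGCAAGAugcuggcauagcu

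The long noncoding genes CDKN2B-AS1 (ANRIL) and MIR31HG of the stretch had no row. None of the 34 RefSeq noncoding genes and pseudogenes between MLLT3 and DMRTA1 had one by symbol or identifier. Nor did any of the 16 in the stretch around CDKN2C, described next. The share of all RefSeq noncoding genes and pseudogenes with a row was not determined, so these counts are no result about either stretch.

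CDKN2C lay in a shorter stretch on chromosome 1. It held 5 coding genes without a row, the neuronal ELAVL4, DMRTA2, FAF1, CDKN2C and C1orf185. FAF1, a ubiquitin-binding adaptor, is expressed in most tissues. BEND5 at 3.01 FPKM and RNF11 at 81.3 FPKM had rows on the 2 sides, and beyond them AGBL4 had none, while TTC39A (3.22 FPKM), EPS15 (22.6 FPKM) and OSBPL9 (48.1 FPKM) did. Around CDKN2C 13 of 20 neighbours had a row, a count found at or below in 34.6% of the coding genes.

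**Figure D3:**
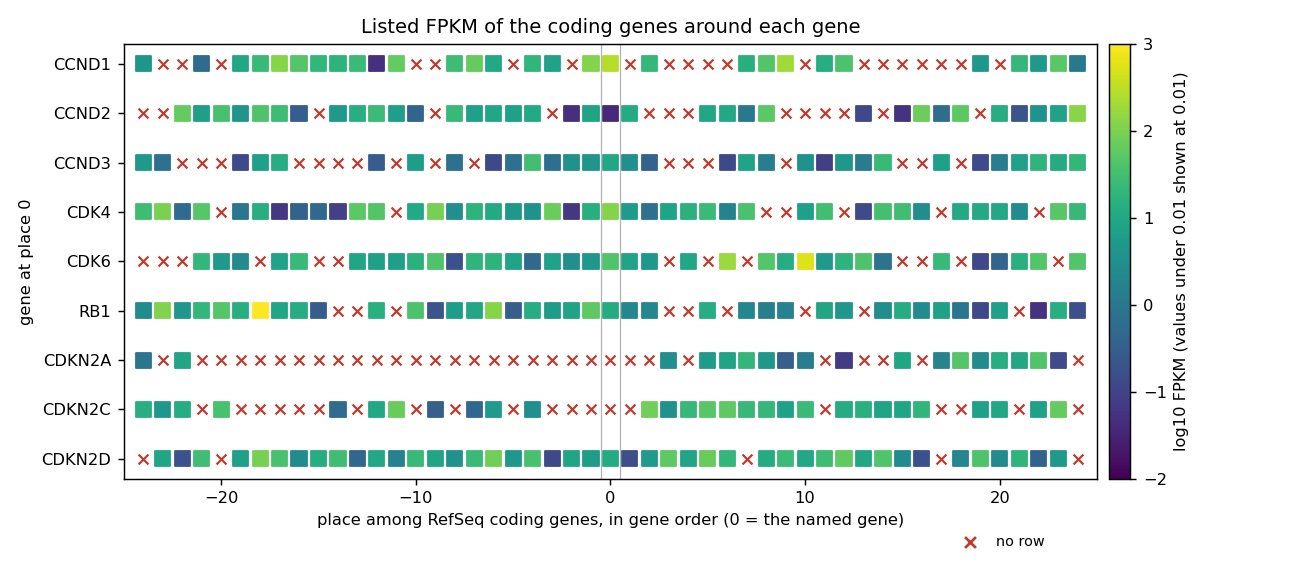
Each line shows up to 24 coding genes on either side of the gene named at the left, in RefSeq gene order, with squares coloured by log10 FPKM and red crosses for genes without a row (CDKN2B lies 1 place to the right of CDKN2A and is not drawn apart). The line of CDKN2A has 24 crosses in a row and that of CDKN2C 5 around its centre, while those of CDK4, RB1 and CDKN2D are mostly filled.

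Stretches without a row were not rare in this file. There were 2860 of them, 81.0% of 1 or 2 genes. The stretch around CDKN2A was among the 15 longest, of 24 genes or more, which held 2.59% of all coding genes. Others of these lay in olfactory receptor clusters on chromosome 11 and in the major histocompatibility complex on chromosome 6, from HLA-G to FLOT1 and from MICB to MPIG6B, where broadly expressed genes such as TUBB are missing too. Stretches of at least 5 genes, as around CDKN2C, numbered 208 and held 10.7% of all coding genes. The files hold no DNA measurement, and whether the genes are absent from the genome of these cells, silent or not counted was not tested.

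Other neighbours set the levels of the listed members in their surroundings. CCND1 was above all 10 of its neighbours with a row, and CDK4 above all 18. The nearest coding gene before CCND1 was MYEOV at 117 FPKM, and the gene of the actin-binding protein CTTN was at 192 FPKM. These were the highest of the CCND1 neighbours with a row, whose median was 24.5 FPKM. Between CCND1 and CTTN, PPFIA1 (44.3 FPKM), LTO1 (21.0 FPKM) and FADD (14.1 FPKM) were lower. ANO1 and SHANK2 had no row. Of the fibroblast growth factor genes beside CCND1, FGF19, FGF4 and FGF3 had no row. CDK4 stood between TSPAN31 at 14.6 FPKM and MARCHF9 at 5.41 FPKM. Of the neighbours with a row, 1 of 14 exceeded CCND3, 3 of 17 CDK6, 5 of 16 RB1 and 9 of 19 CDKN2D, and CCND2 was lower than all 13 of its neighbours with a row. TIGAR and PARP11, next to CCND2, were at 11.4 and 8.37 FPKM.

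Of the 7 members with a row 6 were at 1 FPKM or more, against 64.6% of all listed genes and 77.5% of the listed coding genes. Their median log2(FPKM + 1) was 3.64, beside 1.98 over all listed genes and 3.14 over the coding genes. The members range from the bottom to the top of the file, so this median describes no single member.

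The other brakes and partners of the pathway are given by lists of genes. Among the CIP/KIP inhibitors, CDKN1A (p21), a main target of p53, was at 157 FPKM and CDKN1B (p27), which holds CDK2 in resting cells, at 14.5 FPKM. CDKN1C (p57) had no row. CDKN1A was 14.0 times as high as CDKN2D and 10.8 times as high as CDKN1B. It was thus the highest listed inhibitor, above CDK4 and below CCND1.

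The next step of the pathway, cyclin E and cyclin A with CDK2, lay below CCND1, CDK4 and CDK6 and above CCND2. CDK2, CCNA2 and CCNE2 were above CCND3, and CDC25A, CCNE1 and CCNA1 were below it. The 6 genes of this step had a median of 9.61 FPKM, beside 9.37 FPKM for the 3 D cyclins, which is the level of CCND3. CDK2 was at 18.7 FPKM, and CDK4 and CDK6 together were 8.68 times as high. CCNE1 and CCNE2, which activate CDK2 at the start of DNA synthesis, were at 6.89 and 10.5 FPKM, and CCND1 was 15.6 times their sum. CCNA2, the cyclin of S phase, was at 17.1 FPKM, CDC25A, the phosphatase that activates CDK2, at 8.68 FPKM, and CCNA1, mainly of the germ line, at 0.0712 FPKM.

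The 77.5% of listed coding genes at 1 FPKM or more is the background for the counts that follow. Each of the 10 E2F and DP genes reached 1 FPKM, and their median of 6.89 FPKM was below that of the coding genes. The highest were the E2F partner TFDP1 (37.1 FPKM), the repressor E2F4 (25.1 FPKM), the activator E2F1 (19.9 FPKM) and TFDP2 (15.5 FPKM), and the lowest E2F7 (2.55 FPKM) and E2F5 (1.89 FPKM). Of the MuvB core, which acts with RBL1 and RBL2 as the DREAM repressor, all 5 genes reached 1 FPKM, from RBBP4 at 83.1 FPKM through LIN54 (11.2), LIN37 (10.4) and LIN52 (5.12) to LIN9 at 1.84 FPKM. E2F target genes of DNA replication had a higher median than the factors themselves, but the 2 ranges overlapped. All 15 reached 1 FPKM and had a median of 36.5 FPKM, led by PCNA (98.1 FPKM), the helicase subunit MCM4 (79.4), the thymidylate synthase TYMS (72.9) and RRM1 (56.2), with the origin licensing factors CDT1 (8.62) and ORC1 (8.47) lowest.

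Genes that fold, activate and remove the D cyclins and their kinases come next. CDC37, the cochaperone that loads CDK4 and CDK6 onto HSP90, was at 81.8 FPKM, and the HSP90 genes HSP90AA1 and HSP90AB1 were at 434 and 193 FPKM. CDC37 lies among the 20 nearest coding genes of CDKN2D. Of 13 turnover genes 12 had a row and reached 1 FPKM, where 69.3% of RefSeq coding genes had a row and 77.5% of the listed coding genes reached 1 FPKM, and CRYAB had no row. The highest were SKP1 (229 FPKM), DDB1 (107), CUL4B (78.3) and CUL4A (47.7). AMBRA1, which brings D cyclins to the DDB1 and CUL4 ligase, was at 14.2 FPKM. The lowest were FBXO4 (8.31 FPKM) and FBXO31 (8.30 FPKM), also proposed as cyclin D1 adaptors. Of 11 Polycomb genes, which silence CDKN2A and CDKN2B in dividing progenitors, 9 had a row, beside 69.3% of RefSeq coding genes. All 9 reached 1 FPKM, beside 77.5% of the listed coding genes, and their median was 8.07 FPKM. BMI1 (19.7 FPKM), SUZ12 (16.9), EZH2 (11.3) and EED (8.76) were highest, KDM2B (1.42) and CBX8 (1.26) lowest, and RING1, in the major histocompatibility complex, and CBX2 had no row.

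The small RNA library also holds miRNAs that had been reported, in other work, to lower these genes. Of 26 such miRNAs 25 were listed and 24 had 10 reads or more, against 51.6% of all listed miRNAs. Together they had 868208 reads, or 7.37% of the miRNA reads (exact Clopper-Pearson 95% interval 7.35 to 7.38%). The 3 highest, let-7a-5p, miR-26a-5p and let-7b-5p, held 80.6% of these. The sequences of those with the most reads are shown, followed by miR-16-5p and miR-195-5p, with the seeds in capitals. miR-16-5p and miR-195-5p share a seed and the reported target CCND1. let-7a-5p and let-7b-5p share a seed but no reported target in this list.
let-7a-5p: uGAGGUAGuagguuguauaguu
let-7b-5p: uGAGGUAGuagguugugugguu
miR-26a-5p: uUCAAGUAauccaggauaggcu
miR-29a-3p: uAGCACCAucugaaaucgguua
miR-24-3p: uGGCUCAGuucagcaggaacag
miR-34a-5p: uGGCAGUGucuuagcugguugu
miR-16-5p: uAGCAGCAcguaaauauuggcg
miR-195-5p: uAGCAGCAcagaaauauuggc

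These sequences are those of RefSeq, and each was identical to the one in the deposited file. let-7a-5p, reported against CCND2 and CDK6, had 325277 reads (2.76%), and let-7b-5p, reported against CCND1, 168106 (1.43%). They share their seed with 7 other listed miRNAs, and the 9 together had 1777729 reads (15.1%). miR-26a-5p, reported against CCND2 and RB1, had 206110 reads (1.75%). Its sequence is made by more than 1 gene, and among them is MIR26A2, which lies among the nearest 20 coding genes of CDK4. The passenger strand particular to that copy, miR-26a-2-3p, had 162 reads.

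miR-29a-3p, reported against CDK6, had 82988 reads (0.704%), while its seed relatives miR-29b-3p and miR-29c-3p had 4651 and 135. miR-24-3p, reported against CDK4 and CDKN2A, had 28067 reads (0.238%), and the p53 target miR-34a-5p, reported against CCND1, CDK4 and CDK6, had 11289 (0.0958%). miR-20a-5p had 8460 reads and miR-138-5p, reported against CCND3, 7983. The seed of miR-16-5p and miR-195-5p was shared by 7 listed miRNAs with 9731 reads in all, of which miR-16-5p had 6611 and miR-195-5p 354. miR-124-3p, the neuronal miRNA reported against CDK6, had no row, and miR-137 had 16 reads.

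Summed by reported target, the listed miRNAs had 538000 reads (4.57%) for CCND2, 429681 (3.65%) for CDK6, 207865 (1.76%) for RB1, 206253 (1.75%) for CCND1, 39710 (0.337%) for CDK4, 28067 (0.238%) for CDKN2A and 15221 (0.129%) for CCND3. CCND2, the lowest member by FPKM, had the largest of these sums, but CDK6 at 42.0 FPKM had the second largest. let-7a-5p counted for CCND2 and CDK6 and let-7b-5p for CCND1 only, although they share a seed, and sums by seed were not made. The sums share miRNAs, the lists differ in length from 1 to 10 miRNAs, and no effect of a miRNA on a gene can be read from them.

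**Figure D4:**
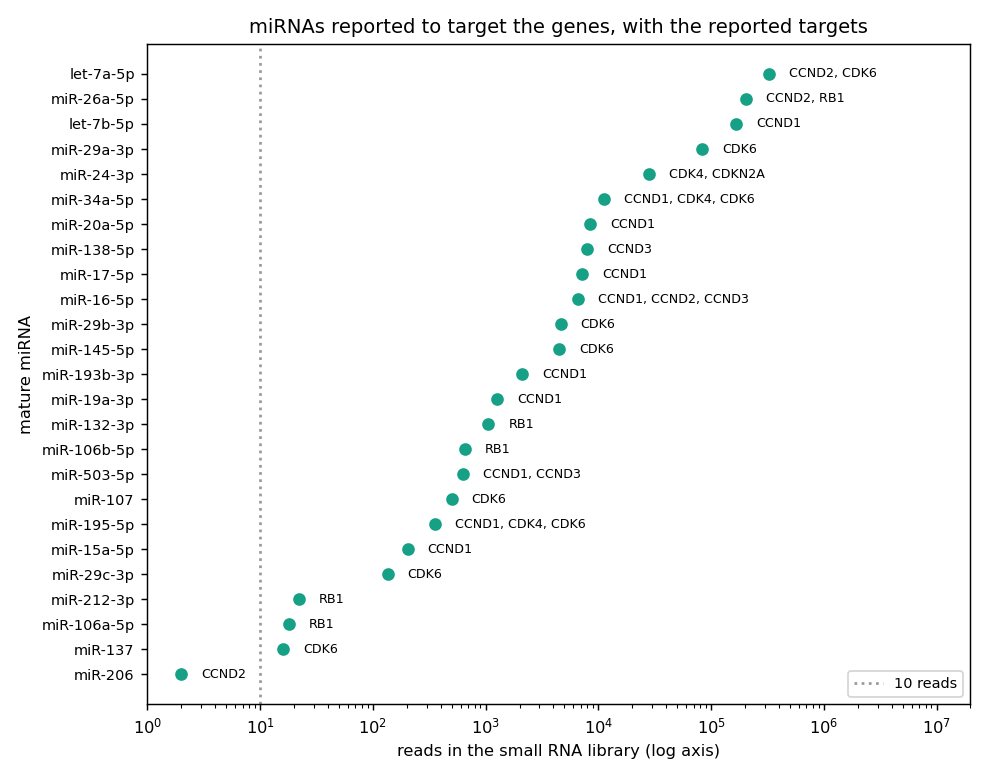
Reads on a log axis of the 25 listed miRNAs reported to target the genes, in falling order, with the reported targets beside each point and a dotted line at 10 reads. let-7a-5p, miR-26a-5p and let-7b-5p lead with 168106 reads or more, and miR-206 with 2 reads is the only one below the line.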

How the data were processed

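Gene expression and small RNA of untreated U87MG cells were measured in 1 library each. The mRNA values were deposited by the authors as FPKM per Ensembl gene, and the miRNA values as read counts per mature miRNA, not normalized, per the file headers. The submitters' processing notes name cutadapt and the builds hg19 and GRCh37. Not given in the sources used here were the aligner, FPKM program, annotation and rule for shared reads. The deposited length column, with a median of 423 over coding genes, 295 for CCND1 and 53 for RB1, holds no transcript lengths in bases and was not used. Which gene length underlies each FPKM is unknown, which limits comparisons between genes. All listed values were above 0, and the lowest, 3.04e-06 FPKM, is no whole-read step, so no counts were recovered.

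Genes were matched by Ensembl identifier, symbol and RefSeq synonym, with pandas 2.3.3 under Python 3.11.15. Of the 21445 identifiers 20595 were in the name table. Gene order, promoters and miRNA sequences came from RefSeq on GRCh38.p14. A gene was counted at 1 FPKM and a miRNA at 10 reads, the pseudocount was 1, and 10 coding genes were taken on each side as neighbours. Stretch and rank code was tested on simulated data. Intervals are exact Clopper-Pearson 95% intervals from scipy 1.17.1. Members, lists and thresholds were chosen with earlier results of these data known. Named were all members, the 4 highest and 2 lowest genes of each list and those without a row (all genes of lists of up to 8), the 5 nearest neighbours on each side of members without a row, and the 8 miRNAs with the most reads and those without a row. Other neighbours, the other miRNAs and AMBRA1, KRT8, MAP2, MYC, MAX, TPI1, GAPDH, PGK1, TUBB and CDKN2AIP were chosen after their values were seen. Alternatives were other thresholds, pseudocounts, gene pools, neighbour numbers and totals. piRNA counts were not used here.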

Additional observations from a re-analysis of the deposited data

How the results depend on the processing

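The count of 6 members at 1 FPKM was the same at 0.1, 0.5 and 5 FPKM, and the cyclin shares and the CDK4 to CDK6 ratio did not change when rows of a symbol were summed, since each symbol had 1 row. The median log2 level of the members, 3.64, was 3.53 with a pseudocount of 0.1, 3.49 with members lacking a row set to 0 and 4.53 over members at 1 FPKM or more. The median place of the members, above 71.2% of listed genes, was 59.8% among coding genes and 71.1% among genes at 1 FPKM or more, without CCND2. Neighbours with a row around CDKN2A made up 35% of 20, 20% with 5 genes on each side and 32.5% with 20. The stretches of 24 and 5 genes were the same without genes named LOC and without synonyms, both chosen after seeing the data. Without miR-21-5p in the total, the reported miRNAs held 17.9% of the reads in place of 7.37%; 25 of them had at least 1 read and 21 at least 100 reads. No paired analysis was possible because each kind of library had 1 sample. No replicate could be left out for the same reason. FPKM values carry no depth, so what depth limits in the mRNA library cannot be said.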
